A study of Mus musculus with 12 samples.

Results

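The 8 keratins of luminal and basal mammary epithelium were followed across 12 mammary tumours, those of the simple type (Krt7, Krt8, Krt18 and Krt19) and those of the basal type (Krt5, Krt14, Krt15 and Krt17). They were taken as all probe sets whose platform gene symbol is 1 of these names, which gave 13 of 22626 probe sets, for 8 of the 12393 genes measured. Where a gene had several probe sets, the one of highest mean stood for it. All tumours came from female FVB mice that carried the MMTV-c-myc transgene, in which a viral promoter active in mammary epithelium drives c-Myc, and that had been mated 2 times. In the knockout group (6 arrays) Hunk, a kinase related to Snf1 and AMPK, was disrupted by putting a pGKneo cassette in place of its putative promoter and exon 1. The wild-type group (6 arrays) kept intact Hunk alleles, and the ages of the mice are not given in the labels. Each array is called a tumour here by its group and number, although the labels do not say that the samples came from separate mice, so that p-values measure the spread between these samples, which may be technical in part.

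Keratins are the intermediate filament proteins of epithelial cells. A filament is built from pairs of an acidic type I chain and a basic type II chain, and the usual partners are Krt8 (type II) with Krt18 (type I) in simple, luminal cells and Krt5 (type II) with Krt14 (type I) in basal and myoepithelial cells. Krt7 is a further type II chain and Krt19 a further type I chain of ductal and glandular epithelium, Krt17 is a type I chain that rises in injured and squamous epithelium, and Krt15 is a type I chain of basal cells in stratified epithelia. In the RefSeq annotation of the mouse the genes of Krt14, Krt15, Krt17 and Krt19 lie together on chromosome 11, and those of Krt5, Krt7, Krt8 and Krt18 lie together on chromosome 15.

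The values are log2 GCRMA signals. Each array carries control probe sets for Bacillus genes, and the brightest of these was taken as its background, which lay between 3.45 and 4.00. Array medians lay between 3.87 and 4.10. Hunk, the targeted gene, was above background in 0 of 6 knockout and 4 of 6 wild-type tumours; wild-type tumours 4 and 6, at 3.32 and 2.99, were not above it. The 3' minus 5' signal of the beta-actin control, a sign of RNA quality, averaged 1.51 ± 0.15 in knockout and 1.29 ± 0.05 in wild-type arrays (SD, n = 6 each). Signals of different probe sets are not set against each other, since each probe set has its own response. In bulk tumour RNA, fewer cells of a type and less RNA per cell cannot be told apart.

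The simple keratins Krt8 and Krt18 were strongly expressed in every tumour, and Krt19 rose in the knockout. Krt5 was near background in 6 of 6 knockout and 5 of 6 wild-type tumours. Krt14 was near background in 1 of 6 knockout and 4 of 6 wild-type tumours. The filter on low values was passed by 7 keratins, Krt5 through wild-type tumour 6 alone. Of these 7, only Krt19 passed the test over all genes (limma, Benjamini-Hochberg adjusted p under 0.05). That is 1 higher and 0 lower, where 1.66% of the 6825 genes tested were higher (113) and 1.68% lower (115), 3.34% in all. With each array centred on its median those counts were 68 and 126. Krt15 did not pass the filter. The 7 tested keratins had a median log2 change of 0.39 and a median absolute change of 0.56, against 0.01 and 0.21 over all genes tested. Since they were chosen with earlier results known, this is a description and not a test.

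**Figure D1:**
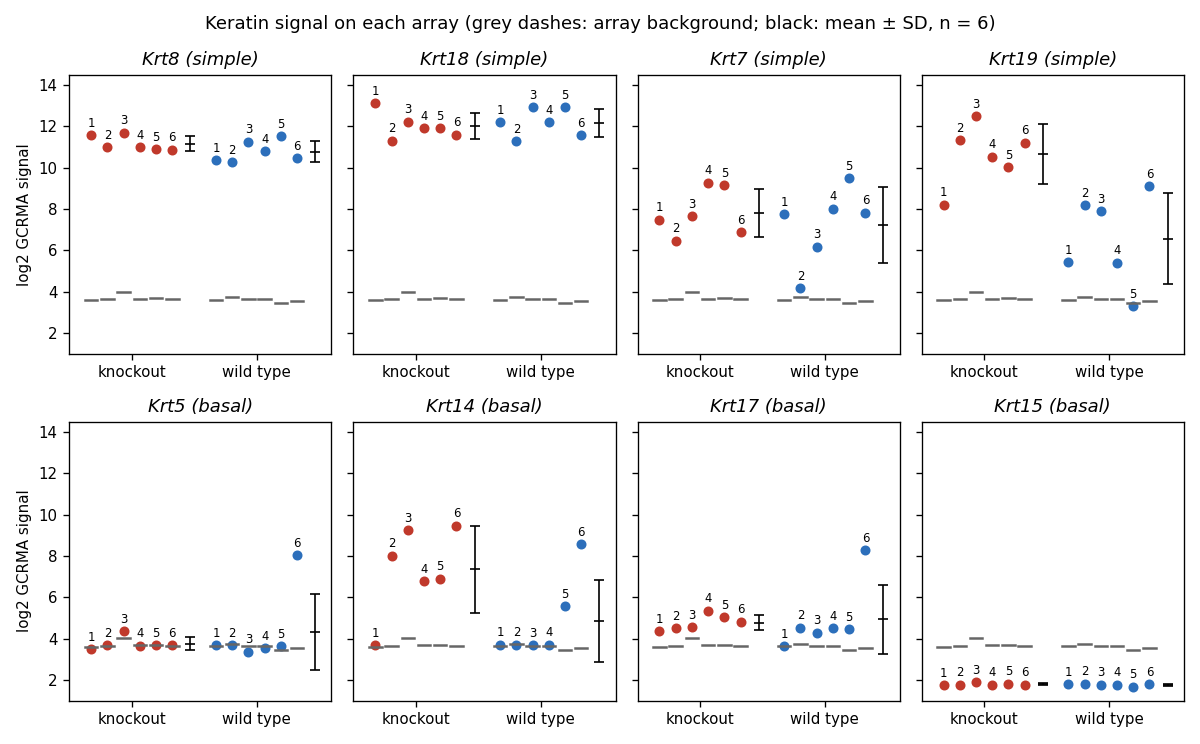
Log2 GCRMA signal of the 8 keratins (panels) on each array, with knockout in red and wild type in blue and the tumour number above each point. Grey dashes give each array's background and black bars the mean ± SD (n = 6); Krt8 and Krt18 sit far above background on all 12 arrays, Krt5 only in wild-type tumour 6 at 8.04, and Krt15 on none.

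Krt8 read 11.59, 10.99, 11.70, 10.99, 10.89 and 10.87 in knockout tumours 1 to 6 and 10.38, 10.28, 11.26, 10.81, 11.54 and 10.46 in wild-type tumours 1 to 6. The groups overlapped, and knockout tumours 1 and 3 were the only ones above every wild-type tumour. The mean was 11.17 ± 0.37 (SD, n = 6) against 10.79 ± 0.52 (SD, n = 6), a log2 change of 0.39 (SE 0.24, 95% interval -0.14 to 0.91, adjusted p = 0.385). The other probe sets of Krt8 gave changes of 0.30 and 0.44.

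Krt18, its filament partner, read 13.14, 11.32, 12.23, 11.91, 11.92 and 11.60 in knockout tumours 1 to 6 and 12.21, 11.29, 12.92, 12.19, 12.93 and 11.58 in wild-type tumours 1 to 6. The tumours of each group spread over nearly the same range. Its log2 change of -0.17 (SE 0.34, 95% interval -0.91 to 0.58, adjusted p = 0.802) was smaller than the spread within either group. It was positive with the beta-actin 3' minus 5' value (0.23) or the adipocyte markers (0.39) as a covariate.

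Krt8 and Krt18 were the simple pair that varied most alike from tumour to tumour. Over the 12 tumours Pearson's r was 0.68 (permutation p = 0.0151) and Spearman's rho 0.68 (permutation p = 0.0186), and r was 0.69 without knockout tumour 3 and wild-type tumour 2, those farthest from the median of Krt8. Within the genotypes r was 0.75 in the knockout (exact permutation p = 0.0597) and 0.90 in the wild type (exact permutation p = 0.0319). Arrays of the same genotype still differ in background and RNA quality. Adjusted over the 28 gene pairs computed, the pooled Pearson p was 0.176 and the Spearman p 0.104, so this relation did not pass, and 0 of the 28 pairs passed by either measure (at an unadjusted permutation p under 0.05, 4 by Pearson's r and 7 by Spearman's rho). Without Krt15, which has no signal above background to correlate, these unadjusted counts were 3 and 6 of 21 pairs.

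For the partners that are strongly expressed and for Krt5, the basal type II chain, the 250 bases before the annotated start are shown, as RefSeq has them (GRCm38.p6). Capitals mark matches to the E-box letters CANNTG, a motif bound by many helix-loop-helix and zinc finger factors, which reads alike on both strands.
Krt8 (minus strand, chr15:102004343-102004592): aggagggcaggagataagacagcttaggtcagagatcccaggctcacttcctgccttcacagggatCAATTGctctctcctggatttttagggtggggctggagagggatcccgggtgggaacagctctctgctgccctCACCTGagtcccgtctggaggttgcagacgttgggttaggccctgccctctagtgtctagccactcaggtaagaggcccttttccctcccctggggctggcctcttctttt
Krt18 (plus strand, chr15:102027966-102028215): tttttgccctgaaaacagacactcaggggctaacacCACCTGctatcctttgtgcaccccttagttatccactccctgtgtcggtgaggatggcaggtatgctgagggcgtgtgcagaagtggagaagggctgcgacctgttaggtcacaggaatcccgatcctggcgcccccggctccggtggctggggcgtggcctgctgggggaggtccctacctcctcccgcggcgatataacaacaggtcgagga
Krt5 (minus strand, chr15:101712906-101713155): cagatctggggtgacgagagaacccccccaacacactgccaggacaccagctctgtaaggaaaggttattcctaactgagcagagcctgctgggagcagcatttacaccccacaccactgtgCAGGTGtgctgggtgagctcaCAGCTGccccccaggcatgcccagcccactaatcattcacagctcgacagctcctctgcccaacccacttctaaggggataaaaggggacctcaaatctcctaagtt
Krt8 and Krt5 each held 2 matches and Krt18 held 1. The E-box letters occur in 66.2% of 32851 promoter windows of that length, so a match here is common. The letters TATAAA (12.4% of windows), GGGCGG (32.7%) and TGANTCA (6.75%), searched on both strands, had no match in these windows. Windows of Krt15, Krt17 and Krt19 are not shown here.

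Krt7, the ductal type II chain, ranged widely in both groups. It read 7.48, 6.48, 7.66, 9.29, 9.17 and 6.89 in knockout tumours 1 to 6 and 7.76, 4.16, 6.19, 8.02, 9.48 and 7.84 in wild-type tumours 1 to 6. Wild-type tumour 2 was the lowest, within 0.5 log2 units of its background, and wild-type tumour 5 the highest. The log2 change was 0.59 (SE 0.80, 95% interval -1.15 to 2.33, adjusted p = 0.701), and it was -0.03 without wild-type tumour 2.

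Krt19, the type I chain of ductal and glandular epithelium, rose in the knockout. It read 8.22, 11.33, 12.51, 10.54, 10.05 and 11.22 in knockout tumours 1 to 6 and 5.43, 8.20, 7.89, 5.41, 3.30 and 9.13 in wild-type tumours 1 to 6. Of the knockout tumours, 5 lay above every wild-type tumour, whereas knockout tumour 1 lay below wild-type tumour 6, so the groups overlapped. In wild-type tumour 5 the signal was below array background. The knockout mean of 10.64 ± 1.45 (SD, n = 6) stood against 6.56 ± 2.20 (SD, n = 6) in wild-type tumours, 17.0-fold higher (log2 change 4.08, SE 0.97, 95% interval 1.98 to 6.19, adjusted p = 0.0424). Its within-group SD of 1.87 exceeded that of 99.2% of the genes tested.

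The call for Krt19 was close to the threshold. It held in 3 of 12 fits that each left out 1 tumour, those without knockout tumour 1 or wild-type tumours 2 or 6, and the adjusted p in the 12 fits ran from 0.0297 to 0.0959 with changes of 3.43 to 4.60. Without knockout tumours 2 to 6 in turn it was 0.0734, 0.0866, 0.0773, 0.0674 and 0.0810, and without wild-type tumours 1, 3, 4 and 5 in turn 0.0838, 0.0536, 0.0959 and 0.0637. Knockout tumours 4 and 5 read within 0.5 log2 units of each other in all 8 keratins, and with them averaged as 1 sample the adjusted p was 0.0710. Adding the beta-actin 3' minus 5' value to the model gave a change of 2.56 (adjusted p = 0.399). With the mean of 3 adipocyte markers as a covariate it was 2.60 (adjusted p = 0.196). That marker mean ran from -1.26 to 3.02 log2 units around its 12-array mean in the knockout and from -1.64 to -0.35 in the wild type, with 0 of the 3 past the test and 4 of 8 measured adipocyte markers (Pparg, Cidec, Lep and Retn) at background on all arrays.

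Leaving Krt19 out, the other simple keratins did not separate the genotypes. This split was chosen after the values were seen. The mean deviation of Krt7, Krt8 and Krt18, each from its own 12-array mean, came to 0.13 ± 0.51 (SD, n = 6) for knockout and -0.13 ± 0.88 (SD, n = 6) for wild-type tumours. With Krt19 the mean of all simple keratins was 0.61 ± 0.39 (SD, n = 6) and -0.61 ± 0.46 (SD, n = 6).

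Among the basal keratins, Krt5 and Krt17 were far higher in wild-type tumour 6 than in any other tumour, whereas Krt14 was over 0.5 log2 units above background in 5 knockout and 2 wild-type tumours and highest in knockout tumour 6. Krt5, the type II chain of basal cells, read 3.50, 3.67, 4.36, 3.65, 3.69 and 3.67 in knockout tumours 1 to 6 and 3.68, 3.68, 3.36, 3.53, 3.62 and 8.04 in wild-type tumours 1 to 6. The first 11 of these values were within 0.5 log2 units of array background, and wild-type tumour 6 was 12.8-fold above the next highest, knockout tumour 3. The log2 change of -0.56 (SE 0.68, adjusted p = 0.657) rests on wild-type tumour 6. Without it the change was 0.18 (SE 0.14) in the fit over all genes (adjusted p = 0.650), between groups near background. The Krt5 mean in that fit was 3.67, under the filter of 3.98, so Krt5 passed the filter through wild-type tumour 6 alone. It had no further probe set, and a probe set near background does not show its gene to be silent.

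Krt17, the type I chain of injured and squamous epithelium, was also highest in wild-type tumour 6, but lay more than 0.5 log2 units above background in every tumour except wild-type tumour 1. It read 4.37, 4.51, 4.54, 5.35, 5.03 and 4.82 in knockout tumours 1 to 6 and 3.62, 4.52, 4.29, 4.50, 4.44 and 8.29 in wild-type tumours 1 to 6. Wild-type tumour 1 was at background and wild-type tumour 6 was 7.66-fold above the next highest, knockout tumour 4. The log2 change was -0.18 (SE 0.63, adjusted p = 0.890) with all tumours and 0.49 (SE 0.21, adjusted p = 0.244) without wild-type tumour 6. The second Krt17 probe set was at background on all arrays.

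Krt14, the type I partner of Krt5, lay over 0.5 log2 units above background in more tumours than Krt5 did. It read 3.68, 8.02, 9.24, 6.77, 6.90 and 9.46 in knockout tumours 1 to 6 and 3.71, 3.70, 3.69, 3.70, 5.57 and 8.58 in wild-type tumours 1 to 6. Knockout tumour 1 and wild-type tumours 1 to 4 were within 0.5 log2 units of background, and 5 of 6 knockout and 2 of 6 wild-type tumours were above that. The means were 7.35 ± 2.12 (SD, n = 6) and 4.83 ± 1.98 (SD, n = 6). The log2 change of 2.52 (SE 1.07, 95% interval 0.20 to 4.84, adjusted p = 0.217) did not pass, nor did the 3.27 (SE 0.90) without wild-type tumour 6 (adjusted p = 0.0887). It was 0.33 with the beta-actin covariate and 1.23 with the adipocyte covariate.

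This Krt14 probe set ends in _x_at and can match related transcripts. A second one, without that suffix, was highest in the same tumours, with 3.98, 7.63, 8.09, 6.12, 6.14 and 9.35 in knockout tumours 1 to 6 and 4.01, 4.22, 3.99, 4.15, 4.59 and 7.89 in wild-type tumours 1 to 6, and a log2 change of 2.08. The third was at background on all arrays. Krt15, the type I chain of stratified basal cells, lay between 1.68 and 1.89 on all 12 arrays, below background on each, and has no measured change.

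**Figure D2:**
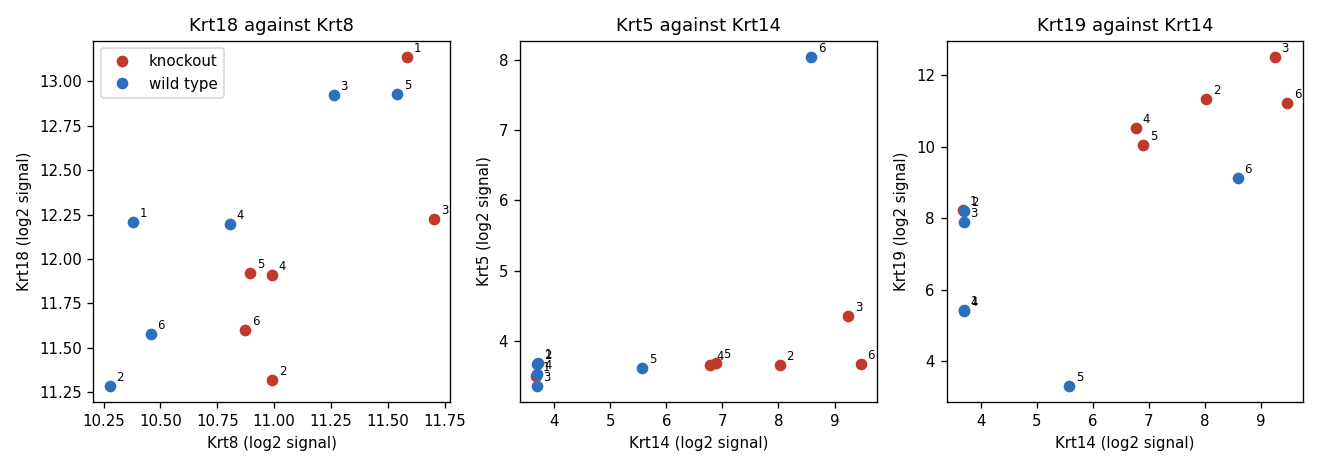
Log2 signals of Krt18 against Krt8, Krt5 against Krt14 and Krt19 against Krt14, 1 point an array with its tumour number, knockout red and wild type blue; the axes do not start at 0. Krt18 and Krt8 run together (r = 0.68), whereas Krt5 stays between 3.36 and 4.36 in all tumours but wild-type tumour 6 while Krt14 runs from 3.68 to 9.46.

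The probe sets of the usual basal partners were seldom high in the same tumour. In knockout tumours 2 to 6 Krt14 read 6.77 to 9.46 with Krt5 near background, and wild-type tumour 6 was the only tumour in which both were high. Over the 12 tumours r between Krt5 and Krt14 was 0.44 (permutation p = 0.0730, adjusted over the 28 pairs 0.341) with rho 0.71 (permutation p = 0.0127, adjusted 0.104). All but 1 of the Krt5 values are near background, so that rho mostly ranks values at the floor. Krt5 and Krt17 had an r of 0.92 (permutation p = 0.0291, adjusted 0.204), which was 0.23 without wild-type tumour 6 and knockout tumour 3. Krt14 varied with Krt19: r was 0.72 (permutation p = 0.00951, adjusted 0.176) and rho 0.71 (permutation p = 0.01135, adjusted 0.104), and r was 0.58 without knockout tumours 3 and 6. Within the knockout r was 0.94 (exact permutation p = 0.0111, adjusted 0.156), where knockout tumour 1 was lowest in both genes, and within the wild type it was 0.29 (exact permutation p = 0.590). None of these relations passed the adjustment.

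**Figure D3:**
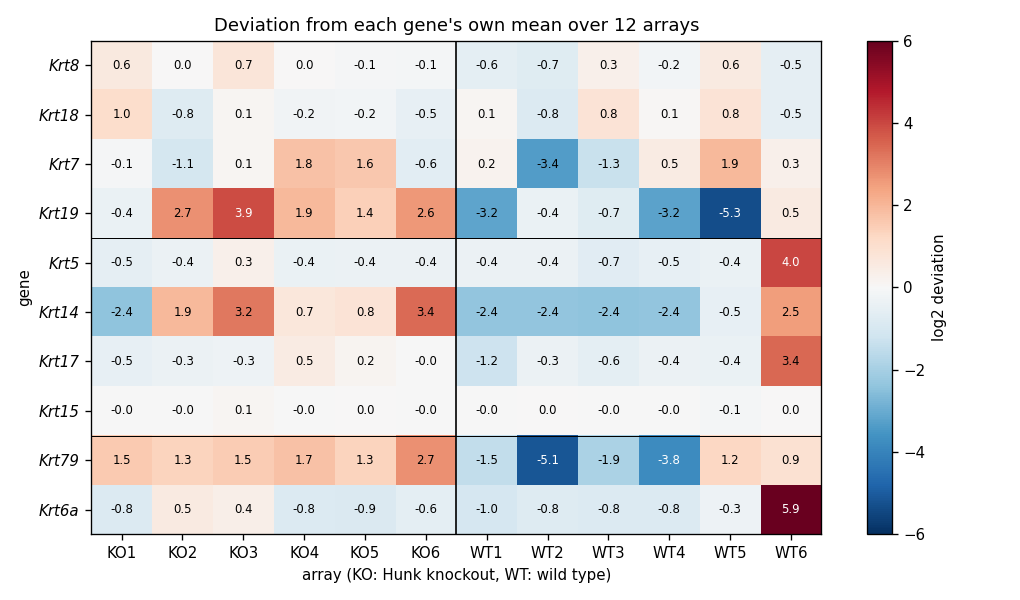
Log2 deviation of each gene (rows) from its own mean over the 12 arrays (columns), for the simple keratins, the basal keratins and the keratins Krt79 and Krt6a, with each value printed. Krt19 and Krt14 are above their means in knockout tumours 2 to 6 and wild-type tumour 6, and Krt5, Krt17 and Krt6a stand out only in wild-type tumour 6.

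Simple against basal keratins were compared tumour by tumour through these deviations. The simple mean minus the basal mean was 1.17, -0.08, 0.40, 0.68, 0.54 and -0.40 in knockout tumours 1 to 6 and 0.13, -0.56, 0.67, 0.12, -0.13 and -2.54 in wild-type tumours 1 to 6. The groups overlapped, and only wild-type tumour 6 lay far from the others. The group means were 0.39 ± 0.56 (SD, n = 6) and -0.39 ± 1.13 (SD, n = 6), a difference of 0.77 that fell to 0.34 without wild-type tumour 6. Both are smaller than the spread within the wild type, of 1.13 with that tumour and 0.45 without it. The basal mean was 0.45 higher in the knockout with all tumours and 0.99 higher without wild-type tumour 6, which Krt14 carried. It counts Krt15, below background on all arrays, which draws it towards 0. Without Krt19 the simple mean was 0.27 higher in the knockout, less than the basal 0.45 with all tumours. These scores have no test, since their members were chosen with results known.

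**Figure D4:**
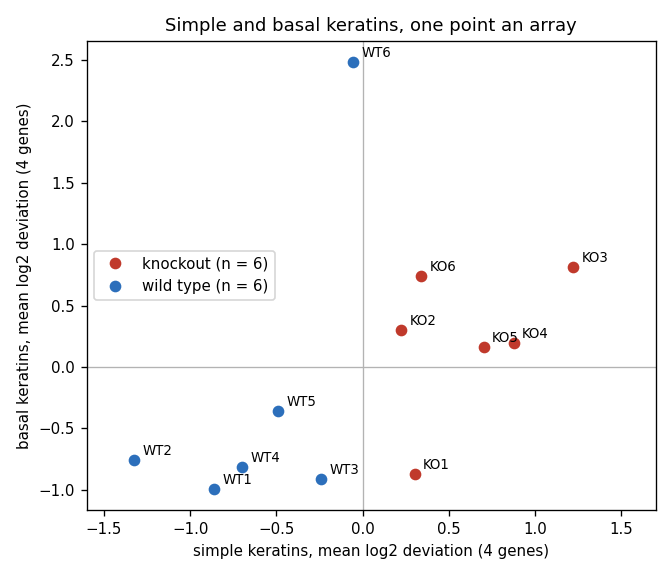
Mean log2 deviation of the 4 basal keratins (vertical) against that of the 4 simple keratins (horizontal), 1 point an array, knockout red and wild type blue. All 6 knockout tumours lie to the right of the wild-type tumours, which was not so without Krt19, and wild-type tumour 6 lies alone at a basal deviation of 2.48.

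**Figure D5:**
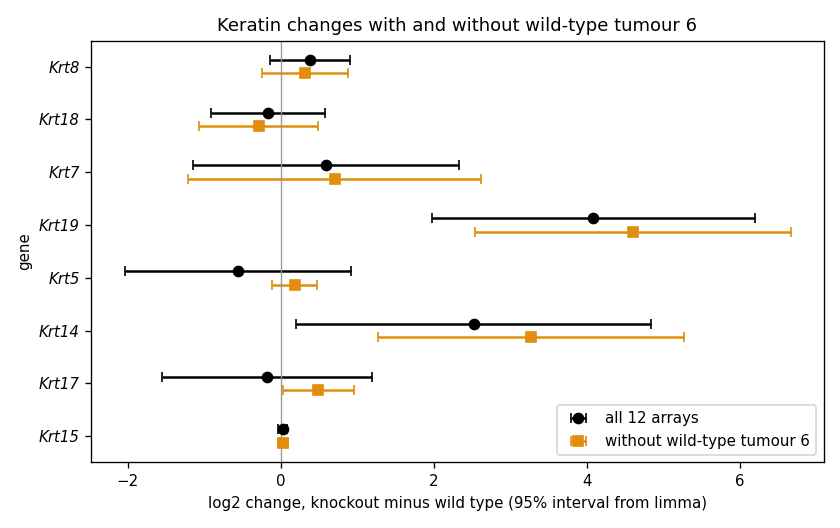
Log2 change (knockout minus wild type) of the 8 keratins with 95% intervals from limma, for all 12 arrays (black) and without wild-type tumour 6 (orange, fit over all 12393 genes). The changes of Krt5 and Krt17 go from -0.56 and -0.18 to 0.18 and 0.49 without that tumour, and that of Krt19 from 4.08 to 4.60.

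Most of the rest of the keratin family gave no signal above background. That does not show the genes to be silent, since 1 probe set each of Krt14 and Krt17 was also at background on all arrays. Of 32 other keratin genes measured, 24 were at background on all arrays, 5 passed the filter and 0 of these passed the test in either direction (limma, with 1 of the 5 at an unadjusted p under 0.05, as were 19.5% of all genes tested). Krt79, a type II keratin of hair follicle and sebaceous duct epithelium, read 9.42, 9.20, 9.38, 9.61, 9.20 and 10.60 in knockout tumours 1 to 6 and 6.39, 2.72, 5.97, 4.09, 9.11 and 8.77 in wild-type tumours 1 to 6. The groups did not overlap, as in 3.15% of the genes tested, though wild-type tumours 5 and 6 came close. Its log2 change of 3.39 (SE 0.95) had an adjusted p of 0.0723, which passed without wild-type tumour 5 (0.0426) or 6 (0.0480). Krt23 had a change of -0.21 (adjusted p = 0.817), and knockout tumour 1, at 6.72, was its highest tumour.

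Krt6a, a type II partner of Krt16 and Krt17 in wounded and squamous epithelium, was the family member most like Krt5. It read 10.25 in wild-type tumour 6 and between 3.32 and 4.88 in the other 11. By the rule for likeness (the highest Pearson correlations over 12 tumours among 6825 genes tested), the genes nearest to Krt5 were the pentraxin Ptx3 (0.99), the Ras relative Eras (0.99), the cornified envelope protein Sprr1a (0.99), Krt6a (0.98) and Gas1 (0.97). These values rest on wild-type tumour 6, since without it they were 0.59 to 0.83, and the signal of Eras there was 11.41 against at most 4.71 elsewhere. Among squamous differentiation genes, Krt6a, Sprr1a and the cell cycle regulator Sfn were highest in wild-type tumour 6, at 10.25, 6.65 and 6.21. Krt6a and Sprr1a passed the filter on low values through that tumour alone, so their being highest there is partly set by the filter. Krt5 itself also passed only through that tumour, so the list of genes nearest to it is partly set by the filter too. Without regard to the filter, 5 of 19 squamous differentiation genes measured were highest in that tumour. Of the 6825 genes that passed the filter, 258 were highest there, and that share was not taken without the filter. Of these 19 squamous genes, 9 were at background on all arrays, among them Krt1, Krt10, Krt13 and Lor, which mark terminal squamous differentiation. For genes at background the highest array says little, and how many of the 5 are such genes was not counted. Over all genes tested, 6 were more than 2 log2 units above every other array in wild-type tumour 6, within the range of 0 to 17 for the other arrays.

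The genes nearest to Krt14 were the acute-phase proteins Saa1 (0.91) and Saa2 (0.87), the epithelial serpin Serpinb5 (0.91), the dynein adaptor Bicd2 (0.89) and the growth factor Bmp5 (0.88). Those nearest to Krt19 were the nucleoside transporter Slc28a3 (0.95), Thrsp, which promotes lipid synthesis (0.94), the proton pump subunit Atp6ap1 (0.90), the PI3-kinase subunit Pik3r1 (0.90) and Zdhhc9 (0.90). Those nearest to Krt8 were Zfp503 (0.83), Sharpin (0.82), Samm50 (0.81), Ehd4 (0.79) and Ccs (0.78). Each is a description over the same 12 tumours, with no test.

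Other markers of the epithelial layers were set beside the keratins. Of 17 luminal markers measured, 4 (Foxa1, Esr1, Pgr and Cited1) were at background on all arrays. Of 10 luminal markers tested, 2 rose, 0 fell and 8 did not pass, with a median log2 change of 0.65 against 0.01 over all genes. At an unadjusted p under 0.05 there were 7 of the 10 (Cd24a, Cldn3, Cldn4, Ehf, Elf5, Kit and Muc1), against 19.5% of all genes tested. The alveolar transcription factor Elf5 rose 4.34-fold (adjusted p = 0.0490, and of the 12 fits that left out 1 tumour it passed only in those without wild-type tumours 2 or 6) and the surface glycoprotein Cd24a rose 1.83-fold (adjusted p = 0.0244, but 0.0509 without knockout tumour 5 and 0.0615 without wild-type tumour 4). With the beta-actin covariate the adjusted p was 0.196 for Elf5 and 0.268 for Cd24a, and with the adipocyte covariate 0.164 and 0.0997. With all probe sets of a gene averaged it was 0.121 and 0.0739. Elf5 also did not pass with quantile scaling (0.0536), median centring (0.0603), eBayes without trend (0.0514) or array weights (0.0738). Of 25 alternative fits, the call held in 6 for Elf5 and in 20 for Cd24a. The cell adhesion protein Epcam had a log2 change of -0.19 (adjusted p = 0.5001), which was 0.15 with the beta-actin and 0.06 with the adipocyte covariate. Wild-type tumours 2, 3 and 6, those with the highest Krt19 among the wild type, also had the highest Elf5, at 9.84, 9.53 and 9.69 against 7.13 to 7.63 in wild-type tumours 1, 4 and 5.

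Of 8 basal and myoepithelial markers tested, 0 rose, 0 fell and 8 did not pass (limma, median log2 change 0.13). At an unadjusted p under 0.05 there were 2 of the 8, against 19.5% of all genes. None was highest in wild-type tumour 6. Since only 258 of the 6825 genes tested were highest there, so few markers say little on this. The markers Myh11, Cnn1, Oxtr, Cdh3, Col17a1 and Id4 were at background on all arrays. The smooth muscle actin Acta2, found in myoepithelial and stromal cells, read 8.58 to 9.60 with a change of 0.24 (adjusted p = 0.455). Trp63, the transcription factor that defines basal cells, named after its values were seen, stayed between 4.21 and 4.68 on all arrays. Of 13 tested genes for proteins that anchor or partner keratin filaments, 1 rose, 0 fell and 12 did not pass (limma, median log2 change 0.06). Over all genes tested 1.66% were higher and 1.68% lower. At an unadjusted p under 0.05 there were 2 of the 13 (Dst and Pkp2), against 19.5% of all genes tested. The gene that rose was Pkp2, a desmosomal plaque protein (2.57-fold, adjusted p = 0.00191). Its groups did not overlap, as in 3.15% of the genes tested. Its log2 change was 1.36 with the probe set of highest mean and 0.77 with all its probe sets averaged (adjusted p = 0.00129).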

How the data were processed

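The deposited values are log2 signals of 22690 probe sets on 12 arrays, made by the authors with GCRMA per the submitters' processing notes, a method that subtracts background and normalizes arrays together, so low values are compressed towards a floor. All sample columns were used (0 were left unused). Probe sets were named from the platform annotation, and a probe set with several symbols (1 shared by Krt14 and Krt17) was not used. The probe set of highest mean stood for a gene, and genes whose probe set lay at or below the median probe-set mean of 3.98 were left out, which left 6825. Groups were compared with limma 3.58.1 (lmFit, eBayes with trend) in R 4.3.3, with Benjamini-Hochberg adjustment over all genes tested and a threshold of 0.05. Correlations used 100000 permutations over the 12 arrays and exact permutation within a genotype (two-sided, scipy 1.17.1). The comparison was tested on simulated data for 6824 genes, where 60% of changes of 1 log2 unit and 97.5% of changes of 2 were recovered, with 3 false among 136 calls. The changes were put into genes taken at random, and the median within-group SD of all genes tested was 0.33. Krt5, Krt7, Krt14, Krt17 and Krt19 had SDs of 1.21 to 2.05, so these shares do not hold for them. Alternatives changed the filter, eBayes, scaling, probe-set summary, floor, array weights, covariates, the replicate block and single tumours. Same-numbered tumours of the groups shared deviations with correlations of -0.04 to 0.14, and the numbers were not taken as pairs. For knockout tumours 2, 5 and 6 the best-matching wild-type tumour had the same number, and for 1, 3 and 4 it had another. With the replicate block the SE was 0.58 against 0.97 for Krt19 and 0.21 against 0.17 for Pkp2. Whether the numbers mark a shared batch was not tested. The members and gene lists were chosen with earlier results of these data known. Named genes were the 8 keratins with every probe set, up to 4 other keratins, up to 3 genes a list, those past the threshold first and then by mean, and the 5 genes most correlated with each of Krt5, Krt14, Krt8 and Krt19.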

Additional observations from a re-analysis of the deposited data

Results flagged for a closer look

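Among 28 groups of 6 values looked at, 8 held a tumour standing far from the other 5 of its genotype by Dixon's criterion, where chance gives about 1 in 20. In the wild type, tumour 6 stood alone in Krt5 (8.04), Krt17 (8.29), Krt6a (10.25) and the mean deviation of the basal keratins (2.48), which Krt5 and Krt17 enter, so these are not separate findings. In the knockout, tumour 3 was highest in Krt5 (4.36), on an array whose background was the highest of all at 4.00. Knockout tumour 6 was highest in Krt79 (10.60) and knockout tumour 1 in Krt23 (6.72). Wild-type tumour 5 was lowest in Krt15 (1.68), a value below background, as in all other tumours.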

How the results depend on the processing

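The count of 228 genes past the threshold was 112 without a filter on low values, 390 with array weights, 69 with the replicate block, 72 with the beta-actin covariate, 124 with knockout tumours 4 and 5 averaged and 94 (without wild-type tumour 4) to 210 (without knockout tumour 1) with 1 tumour left out; the cause was not tested, beyond the more genes tested in the first and the fewer samples in the last 2. Of the keratins 0 passed without the filter or with the beta-actin covariate, the adipocyte covariate or tumours 4 and 5 averaged, and 0 to 1 with 1 tumour left out. With the replicate block Krt19 passed (adjusted p = 0.0225) and no call of a keratin changed. The difference between simple and basal keratins stayed positive in every alternative run, from 0.34 to 0.98 with 1 tumour left out. That sign rests on Krt19, since without Krt19 the simple mean was 0.27 higher in the knockout, less than the 0.45 of the basal mean. The basal mean also counts Krt15, which was below background on all arrays with a change of 0.02, and no run left Krt15 out. The sign turned, between values that passed no test, for Krt18 (0.23 with beta-actin, 0.39 with adipocyte markers), Epcam (0.15 and 0.057), Krt23 (0.97 and 0.52, and 0.016 without wild-type tumour 4), Krt17 (0.032 with beta-actin, 0.49 without wild-type tumour 6, with or without the filter), Krt5 (0.18 without that tumour and the filter, a fit added after seeing the data) and Krt7 (-0.029 without wild-type tumour 2). With 1 tumour left out the changes ran from -0.44 to 0.49 for Krt17, -0.61 to 0.016 for Krt23 and -0.029 to 1.04 for Krt7. In 0 of 3 other settings (quantile scaling, median centring, tumours 4 and 5 averaged) did any of the 28 keratin pairs pass. Changes of genes near background are understated, and precision is limited by how few arrays there are.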

Other observations

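Milk genes spread widely in both groups, with a mean log2 deviation of -2.02 to 3.84 in the knockout and -2.34 to 2.12 in the wild type. Of 9 tested, 1 rose, 0 fell and 8 did not pass (limma, median log2 change 2.11), where 1.66% of all genes tested were higher and 1.68% lower. At an unadjusted p under 0.05 there were 2 of the 9 (Ltf and Wap), against 19.5% of all genes tested. The change was positive in 8 of the 9, all but Csn3. Ltf, which encodes the iron-binding protein lactoferrin, read 10.33 to 12.77 (median 11.58) in the knockout and 2.55 to 11.39 (median 6.45) in the wild type, and the groups overlapped. Its log2 change was 5.04 (SE 1.20, adjusted p = 0.0427), and of the 12 fits that left out 1 tumour it passed only in that without wild-type tumour 2 (6.02, adjusted p = 0.00547), with an adjusted p of 0.0555 to 0.0959 in the other 11. It also did not pass with the beta-actin covariate (adjusted p = 0.206), the adipocyte covariate (0.110), the replicate block (0.0813), no filter (0.0797) or knockout tumours 4 and 5 averaged (0.0642). The casein gene Csn3 showed a difference of -2.25 (adjusted p = 0.419), and Xdh, an enzyme of milk fat secretion, one of 0.43 (adjusted p = 0.681).

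Markers of other cell types in a tumour passed no test in either direction in limma. At an unadjusted p under 0.05 there were 2 of 3 adipocyte, 0 of 2 skeletal muscle, 3 of 6 fibroblast, 3 of 10 macrophage and 0 of 2 endothelial markers tested, against 19.5% of all genes tested. The collagen Col3a1, a fibroblast marker, had a change of 0.94 (SE 0.26, adjusted p = 0.0691). The adipocyte lipid carrier Fabp4 had a change of 1.51 (adjusted p = 0.222) and read 5.17 to 11.19, with knockout tumour 2 highest. The macrophage lysozyme Lyz2 had a change of -0.18 (adjusted p = 0.809).

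Pkp1, a desmosomal plaque protein of stratified epithelium related to Pkp2, was named after its values were seen. It lay below background in all 6 knockout tumours (1.87 to 2.19) and above it in 5 of 6 wild-type tumours, at 4.57, 3.93, 4.86, 6.88 and 5.42 in wild-type tumours 1, 3, 4, 5 and 6 and 1.93 in tumour 2. Its mean lay under the filter, so it was not tested. Wild-type tumour 5, not tumour 6 with its high Krt5, had the highest signal.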
